A study of Mus musculus with 12 samples.

Results

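Integrins are the cell's main receptors for the extracellular matrix, and laminins are a major class of the matrix proteins that integrins hold. The genes described here are the 37 integrin and laminin chains that were measured in mouse liver, 18 integrin alpha chains, 9 integrin beta chains and 10 laminin chains, out of 19937 genes with a probe set of their own on the array. They were chosen by gene symbol, with earlier results of these data known, and with 1 probe set for each gene, the brightest over all arrays. Related genes that carry a similar symbol but are no chains, such as the integrin-binding protein Itgb1bp1, were left out.

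Livers of 12 male mice on the C57BL6/JJmsSlc background were measured with 1 array per animal, 3 animals in each of 4 groups. The groups were Atf7-/- mice from in vitro fertilization (IVF), Atf7-/- mice from natural mating, WT mice from IVF and WT mice from natural mating. ATF7 is a transcription factor that silences its target genes on chromatin. The Atf7-/- animals were ATF7-deficient mice, and in all groups both parents had the genotype of the offspring. IVF embryos were transferred to ICR recipient females, so IVF as compared here includes culture and transfer. Each of the 3 animals had a mother or recipient of its own. The sample labels give the age as 4 weeks, and the methods of the study give 3 weeks.

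An integrin is a pair of 1 alpha and 1 beta chain. The alpha chain largely sets the ligand. Itga1, Itga2, Itga10 and Itga11 pair with Itgb1 and bind collagen, Itga3, Itga6 and Itga7 bind laminin, and Itga5, Itga8, Itgav and Itga2b belong to receptors that read the Arg-Gly-Asp (RGD) motif of fibronectin, vitronectin, nephronectin or fibrinogen. The leukocyte chains Itgal, Itgam, Itgax and Itgad pair with Itgb2, Itgae pairs with Itgb7, and Itga4 pairs with Itgb1 or Itgb7. A laminin is a trimer of an alpha, a beta and a gamma chain that assembles into the basement membrane. The sinusoids of normal liver have no continuous basement membrane, while bile ducts and larger vessels do, and collagen-binding and RGD-binding integrins of stellate cells, endothelium and hepatocytes contact the loose matrix beside the sinusoids.

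As a check of the labels, the Atf7 probe set 10433032 averaged 5.52 ± 0.17 in Atf7-/- IVF, 5.96 ± 0.14 in Atf7-/- natural mating, 8.04 ± 0.43 in WT IVF and 8.78 ± 0.18 in WT natural mating livers (log2 value, SD, n = 3 each). The other Atf7 probe set, 10433034, averaged 8.38, 8.68, 8.76 and 9.02 in these groups and did not pass for ATF7 loss after natural mating (-0.34, SE 0.11, adjusted p = 0.0758) or after IVF (-0.39, SE 0.11, adjusted p = 0.721), and where either lies relative to the deletion was not analysed here. With IVF in WT, 10433032 changed by -0.74 (SE 0.19, limma adjusted p = 0.0384), which meets the rule for a called change given below. For 10433034 this change was -0.26 (SE 0.11, adjusted p = 0.19). The study itself reports Atf7 mRNA, and ATF7 protein by western blot, as unaffected by IVF in liver. Hepatocyte markers were at the top of the scale in every group, with a mean over the 8 measured ones between 12.9 and 13.0. Arrays of a group correlated at 0.980 to 0.990 over all probe sets, and WT natural mating replicate 3 held the lower end with both of its mates (0.980 to 0.982). All values below are log2 expression values, on which a difference of 1 is a doubling, and a level of one gene cannot be set against that of another because their probes differ. Of the 37 genes, 10 had a mean below that of the median probe set (6.27), namely Itga2, Itga11, Itgae, Itgam, Itgax, Itgb2l, Itgb6, Itgb7, Itgb8 and Lama3. The median spread of the 37 genes between the animals of a group was an SD of 0.14, from 0.048 for Lamb2 to 0.28 for Itga6.

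Of the 5 genes that passed the test in at least 1 comparison below, the sequence before the start was at hand for Itga1, Itga8, Itgav and Lama2, and it is shown because these 4 were all higher in WT livers after IVF. Each line gives the 250 bases before the RefSeq start, 5′ to 3′ on the gene's strand, in assembly GRCm38.p6: Itga1 chr13:115101965-115102214 (minus strand), Itga8 chr2:12301945-12302194 (minus strand), Itgav chr2:83724147-83724396 (plus strand) and Lama2 chr10:27616943-27617192 (minus strand). Capitals mark a motif match.

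Itga1: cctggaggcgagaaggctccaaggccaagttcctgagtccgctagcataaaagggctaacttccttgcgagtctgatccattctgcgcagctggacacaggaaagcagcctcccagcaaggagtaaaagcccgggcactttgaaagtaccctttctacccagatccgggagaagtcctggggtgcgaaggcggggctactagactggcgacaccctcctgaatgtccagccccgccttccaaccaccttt
Itga8: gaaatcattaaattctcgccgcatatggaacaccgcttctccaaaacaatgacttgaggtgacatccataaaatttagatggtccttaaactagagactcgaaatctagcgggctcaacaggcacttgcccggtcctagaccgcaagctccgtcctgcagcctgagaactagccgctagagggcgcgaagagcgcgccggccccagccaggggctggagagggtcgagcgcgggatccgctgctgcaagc
Itgav: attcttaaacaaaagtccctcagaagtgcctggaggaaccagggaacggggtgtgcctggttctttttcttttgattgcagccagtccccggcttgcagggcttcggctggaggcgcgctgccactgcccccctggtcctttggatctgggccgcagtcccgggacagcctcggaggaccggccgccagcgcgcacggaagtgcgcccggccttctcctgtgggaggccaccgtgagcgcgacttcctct
Lama2: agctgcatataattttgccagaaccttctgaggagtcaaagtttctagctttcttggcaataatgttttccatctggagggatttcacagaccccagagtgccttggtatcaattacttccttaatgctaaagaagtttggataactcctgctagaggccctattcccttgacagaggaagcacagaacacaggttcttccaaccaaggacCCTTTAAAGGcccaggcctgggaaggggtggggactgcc

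The motifs searched, on both strands, were the cAMP response element TGACGTCA that ATF factors bind, its half-site TGACG, the AP-1 site TGANTCA, the GC box GGGCGG, the CCAAT box, the TATA box TATAAA and the serum response factor site known as the CArG box. The half-site lies within the full element. The only match in the 4 sequences was a CArG box in Lama2, from 39 to 30 bases before the start, a motif that 1.47% of all 32851 promoters of this length hold. Among the 27 promoters of the 24 genes that matched, 0 held the full cAMP response element (1.55% of all promoters), 4 held its half-site (17.8% of all), in Itga9, Itgb1, Itgb6 and Lama5, and 9 held a GC box (32.7% of all). These letters describe the window, and whether any factor binds there was not measured.

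In WT mice a small set of integrin and laminin genes was higher after IVF, and none was lower past the threshold. A change was called where the limma p, adjusted over all 34760 probe sets, was at most 0.05 and the log2 change was 0.6 or more in either direction. By this rule 5 of the 37 genes (13.5%) were higher in livers of WT IVF mice than of WT natural mating mice, against 2.85% of all probe sets and 3.27% of named genes taken by their brightest probe set. None of the 37 was lower, against 1.67% of all probe sets and 0.953% of named genes taken that way. From the same arrays, the study had listed ECM-receptor interaction among the pathways overrepresented in genes upregulated by IVF in WT. The count of higher genes here is not independent of that result. Without WT natural mating replicate 1, 3 were called as higher and 2, Itgal and Itgb2, as lower. The 5 genes were Itga1, Itga6, Itga8, Itgav and Lama2, that is, 4 integrin alpha chains and a laminin alpha chain. The other members did not move with them as a body, since the median change of the 37 was -0.02 and 15 were above 0, beside a median of -0.04 over all probe sets, and with each array centred on its median the 37 had a median of 0.05 and 23 were above 0.

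**Figure D1:**
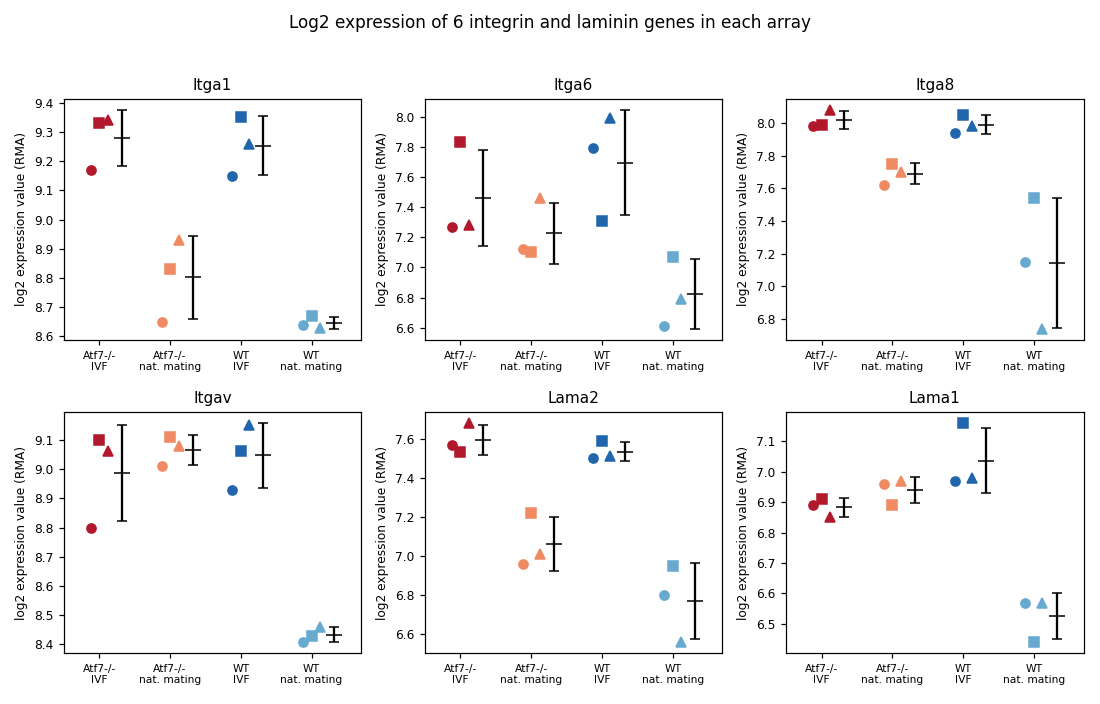
Log2 expression value (y axis) of Itga1, Itga6, Itga8, Itgav, Lama2 and Lama1 in the 12 livers by group (x axis). Circles, squares and triangles are replicates 1, 2 and 3, and the bars beside them are the mean and SD of the 3. Itgav and Lama1 are low in WT natural mating alone, at 8.41 to 8.46 and 6.44 to 6.57, while Itga1 and Lama2 are high in both IVF groups.

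Among the collagen-binding chains, Itga1, the alpha chain of a receptor for collagen IV and other collagens found on mesenchymal and endothelial cells, had values of 9.15, 9.35 and 9.26 in WT IVF livers, against 8.64, 8.67 and 8.63 in WT natural mating livers. The groups were far apart beside an SD of 0.097 and 0.019 within them. The log2 fold change was 0.61 (SE 0.10, adjusted p = 0.00462), or 1.53-fold. Its call rested on the fold limit, since the log2 fold change without WT IVF replicate 2 was 0.56 (adjusted p at most 0.0225 without any 1 array). The other collagen-binding chains Itga2, Itga10 and Itga11 had log2 fold changes between -0.20 and -0.03 and did not pass.

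Of the laminin-binding chains, Itga6, which pairs with Itgb1 or Itgb4, had values of 7.79, 7.31 and 7.99 in WT IVF livers, against 6.61, 7.07 and 6.79 in WT natural mating livers. All 3 IVF animals were above all 3 controls, but WT IVF replicate 2 was close to them. Itga6 thus changed by 0.88 (SE 0.21, 95% confidence interval 0.42 to 1.34, adjusted p = 0.0276), the highest of the 37 and also the most variable. The call ended without WT IVF replicate 1, WT IVF replicate 3, WT natural mating replicate 1 or WT natural mating replicate 3, with an adjusted p of up to 0.0962, and in a fit of the WT arrays alone (adjusted p = 0.0638). Itga3 and Itga7 had log2 fold changes of -0.22 and -0.28 that did not pass.

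Itga8 and Itgav were the called RGD-binding chains. Itga8 pairs with Itgb1, binds nephronectin and is known from mesenchymal cells, hepatic stellate cells among them. Its values were 7.94, 8.05 and 7.98 in WT IVF livers, against 7.15, 7.54 and 6.74 in WT natural mating livers. The IVF animals were tight and the controls spread, with WT natural mating replicate 3 the lowest of all 12. Itga8 changed by 0.85 on the log2 scale (SE 0.16, adjusted p = 0.0106), and 0.65 (adjusted p = 0.0103) without that array. The call held with any 1 array left out and ended in a fit of the WT arrays alone (adjusted p = 0.0632).

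Itgav, the alpha chain that pairs with Itgb1, Itgb3, Itgb5, Itgb6 or Itgb8 and takes part in releasing TGF-beta from its latent form, had values of 8.93, 9.06 and 9.15 in WT IVF livers, against 8.41, 8.43 and 8.46 in WT natural mating livers. The controls differed among themselves by far less than the gap. Itgav changed by 0.61 on the log2 scale (SE 0.10, adjusted p = 0.00513). It lay just above the fold limit, at 0.60 without WT natural mating replicate 1 and 0.56 without WT IVF replicate 3, both under the limit unrounded. Itga5, the fibronectin receptor chain, had values of 8.79, 8.82 and 8.86 in WT IVF livers, against 8.50, 8.33 and 8.34 in WT natural mating livers. At 0.43 on the log2 scale (SE 0.09, adjusted p = 0.0186) it passed the p threshold and not the fold limit, and the p threshold too was lost without some single arrays (adjusted p up to 0.064). Itga2b, the platelet fibrinogen receptor chain, had a log2 fold change of 0.12.

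The beta chains that pair with these did not pass. Itgb1, the partner of Itga1, Itga6, Itga8 and Itgav, had values of 9.69, 9.86 and 9.74 in WT IVF livers, against 9.59, 9.61 and 9.15 in WT natural mating livers. All 3 IVF values were higher, by 0.32 on the log2 scale in the mean (SE 0.13, adjusted p = 0.171), of which 0.17 was left without WT natural mating replicate 3. Itgb3, which pairs with Itgav or Itga2b, had values of 7.46, 7.59 and 7.48 in WT IVF livers, against 7.24, 7.26 and 7.36 in WT natural mating livers, a log2 fold change of 0.22 (adjusted p = 0.319). Itgb5 and Itgb8, further partners of Itgav, had log2 fold changes of -0.02 and 0.08. Itgb4, the other partner of Itga6, had -0.07, and Itgb6 had -0.01.

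Of the 10 laminin chains, Lama2 was called. Lama2 is the alpha chain of the laminins best known from the basement membrane of muscle and nerve, and it is made by mesenchymal cells. Its values were 7.50, 7.59 and 7.51 in WT IVF livers, against 6.80, 6.95 and 6.56 in WT natural mating livers. The IVF animals lay within 0.09 of each other and well above every control. Lama2 changed by 0.76 on the log2 scale (SE 0.11, adjusted p = 0.00352), or 1.70-fold, and the call held with any 1 array left out (0.66 to 0.85).

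Lama1, the alpha chain of the early embryonic laminin, had values of 6.97, 7.16 and 6.98 in WT IVF livers, against 6.57, 6.44 and 6.57 in WT natural mating livers. Its change of 0.51 (SE 0.08, adjusted p = 0.00577) passed the p threshold and not the fold limit, and did so with any 1 array left out. The chains that complete such trimers were Lamb1 and Lamc1. Lamc1, the gamma chain of most laminins, had values of 8.50, 8.80 and 8.43 in WT IVF livers, against 8.22, 8.34 and 8.29 in WT natural mating livers. It was higher in every IVF animal and did not pass (0.29, SE 0.11, adjusted p = 0.14). Lamb1 had values of 7.33, 7.70 and 7.34 in WT IVF livers, against 7.15, 7.40 and 6.79 in WT natural mating livers, and these groups overlapped (0.35, SE 0.15, adjusted p = 0.182). In WT without the fold limit, then, 7 of 37 passed as higher, against 5.13% of all probe sets, and 0 as lower, against 3.49%. The endothelial chains Lama4 and Lama5 had log2 fold changes of -0.02 and 0.07, and Lama3, Lamb2, Lamb3 and Lamc3 lay between -0.16 and 0.03.

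Judged by order alone, 10 of the 37 genes (27%) had all 3 WT IVF livers above all 3 WT natural mating livers, against 14% of all probe sets. These were the 5 called genes with Itga5, Itgb1, Itgb3, Lama1 and Lamc1. In the other direction 6 genes (16.2%) had all 3 WT IVF livers below the controls, against 15.4% of all probe sets, namely Itga3, Itga9, Itgal, Itgax, Itgb7 and Lamb3. With an unadjusted p under 0.05 there were 15 of 37, or 40.5%, against 24.9% of all probe sets.

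**Figure D2:**
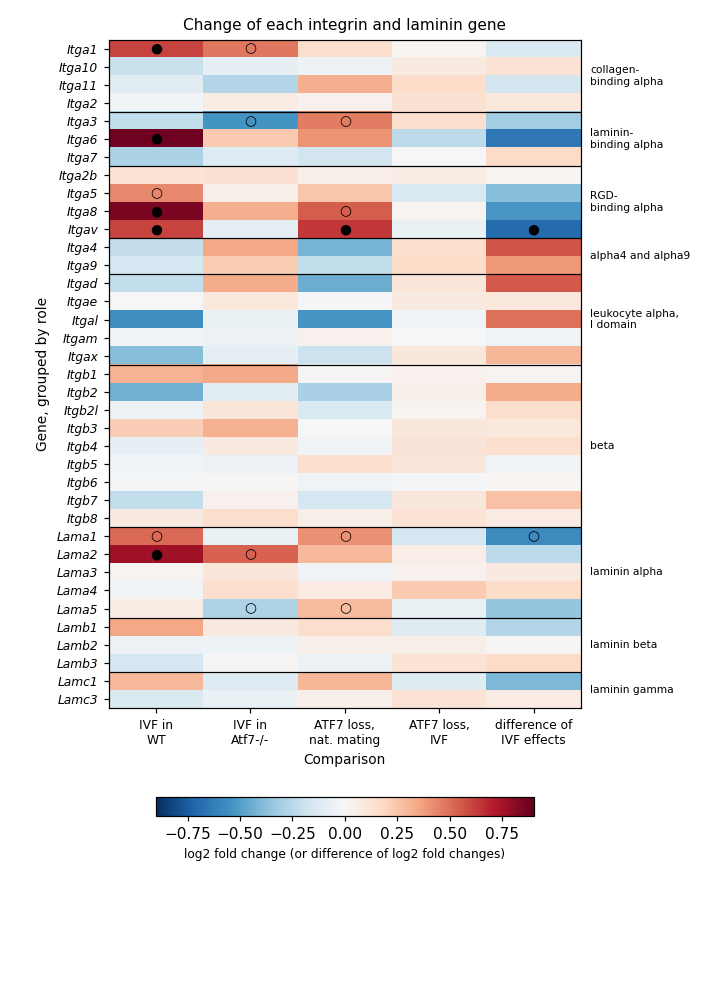
Log2 fold change (colour) of the 37 genes (rows, grouped by role) in the 4 comparisons of 2 groups and in the difference of the IVF effects (columns). Filled circles mark called changes and open circles an adjusted p of at most 0.05 without the fold limit. The ATF7 loss column after IVF has no circle, and Itga1, Itga6, Itga8, Itgav and Lama2 carry the filled circles of IVF in WT.

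In Atf7-/- mice the same comparison called 0 of the 37 genes, against 3.27% of all probe sets (2.31% of named genes) higher and 3.51% (4%) lower. Without the fold limit 4 passed the p threshold, Itga1 and Lama2 as higher (6.12% of all probe sets) and Itga3 and Lama5 as lower (6.82% of all), and 8 genes (21.6%) had an unadjusted p under 0.05, against 26% of all probe sets. The median change was 0.05, beside 0.01 over all probe sets.

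Itga1 had values of 9.17, 9.33 and 9.34 in Atf7-/- IVF livers, against 8.65, 8.83 and 8.93 in Atf7-/- natural mating livers. Lama2 had values of 7.57, 7.53 and 7.68 in Atf7-/- IVF livers, against 6.96, 7.22 and 7.01 in Atf7-/- natural mating livers. Both were higher in every IVF animal, as in WT, by 0.48 on the log2 scale (SE 0.10, adjusted p = 0.0079) for Itga1 and 0.53 (SE 0.11, adjusted p = 0.0098) for Lama2. The IVF effects of the genotypes differed by -0.13 (SE 0.13, 95% confidence interval -0.43 to 0.16, adjusted p = 0.62) for Itga1 and by -0.23 (SE 0.16, interval -0.58 to 0.11, adjusted p = 0.429) for Lama2, so a difference of either sign was within the error.

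Itga3 and Lama5 went down with IVF in this genotype. Itga3, a laminin-binding chain known from epithelia, had values of 6.86, 6.72 and 6.85 in Atf7-/- IVF livers, against 7.21, 7.37 and 7.46 in Atf7-/- natural mating livers. It changed by -0.53 (SE 0.09, adjusted p = 0.00314) and was past the p threshold with any 1 array left out. Without Atf7-/- natural mating replicate 1 it was -0.60 and also past the fold limit. Lama5, an alpha chain of vessel and duct basement membranes, had values of 6.71, 6.61 and 6.56 in Atf7-/- IVF livers, against 6.83, 6.99 and 6.89 in Atf7-/- natural mating livers (-0.28, SE 0.08, adjusted p = 0.0462). This small difference lost the p threshold without most single arrays (adjusted p up to 0.162).

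Of the other chains that led their class, Itga8 had values of 7.98, 7.99 and 8.08 in Atf7-/- IVF livers, against 7.62, 7.75 and 7.70 in Atf7-/- natural mating livers. These groups did not overlap, and the log2 fold change was 0.33 (SE 0.16, adjusted p = 0.224). Itgb1 had values of 9.60, 9.96 and 9.85 in Atf7-/- IVF livers, against 9.46, 9.48 and 9.44 in Atf7-/- natural mating livers (0.34, SE 0.13, adjusted p = 0.124). In both genotypes, then, Itgb1 was higher in all 3 IVF animals and did not pass the test. Itga6 overlapped between these groups, with values of 7.27, 7.83 and 7.28 in Atf7-/- IVF livers, against 7.12, 7.10 and 7.46 in Atf7-/- natural mating livers (0.24, SE 0.21, adjusted p = 0.548). Lamb1 and Lamc1 had log2 fold changes of 0.08 and -0.11 and overlapped too. By order alone, 7 of the 37 (18.9%) were higher in all 3 Atf7-/- IVF livers, against 16% of all probe sets, and 3 (8.11%) lower, against 16.2%.

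**Figure D3:**
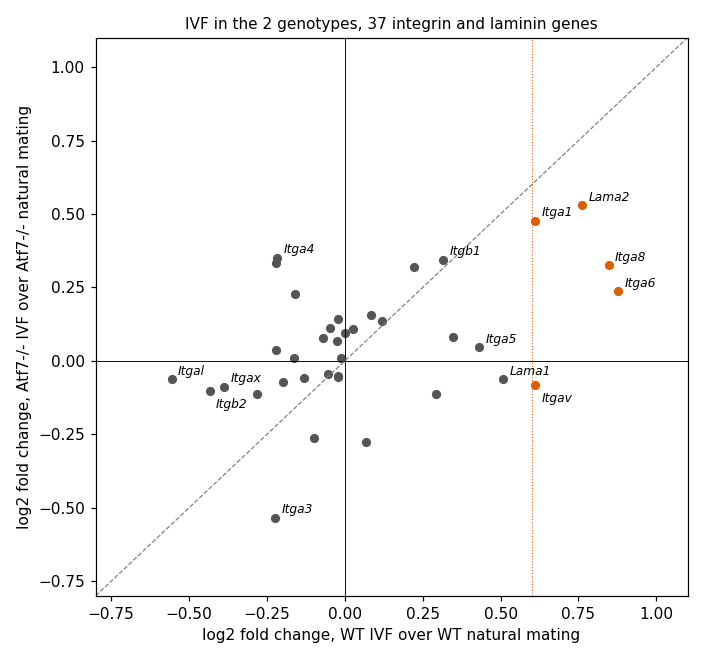
Log2 fold change of IVF over natural mating in Atf7-/- livers (y axis) against that in WT livers (x axis) for the 37 genes (points). Orange points were called in WT, the dotted line is the fold limit of 0.6 and the dashed line marks equal effects. Itga1 and Lama2 are positive on both axes, at 0.48 and 0.53 on the y axis, and Itgav and Lama1 lie near 0 on it.

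The difference between the IVF effects, that in Atf7-/- minus that in WT, was tested directly. One of the 37 genes passed, Itgav, as lower (2.7%), against 3.46% of all probe sets and 4.23% of named genes. Called as higher were 2.72% and 1.47% of these. Itgav had values of 8.80, 9.10 and 9.06 in Atf7-/- IVF livers, against 9.01, 9.11 and 9.08 in Atf7-/- natural mating livers. These groups overlapped, with a log2 fold change of -0.08 (SE 0.10, 95% confidence interval -0.30 to 0.13), where WT had given 0.61. The difference of -0.69 (SE 0.14, adjusted p = 0.0138) was called with any 1 of the 12 arrays left out (-0.75 to -0.60).

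Lama1 had the other difference past the p threshold, -0.57 (SE 0.12, adjusted p = 0.0158), a little short of the fold limit, where 4.15% of all probe sets passed as lower and 3.1% as higher. Its values were 6.89, 6.91 and 6.85 in Atf7-/- IVF livers, against 6.96, 6.89 and 6.97 in Atf7-/- natural mating livers, a log2 fold change of -0.06 (SE 0.08, interval -0.24 to 0.12). For both genes, the WT natural mating group was below the other 3 groups in every animal, and both differences therefore rest on that group's 3 arrays as much as on the IVF animals. Itga6 and Itga8, which were called in WT, had differences of -0.64 (SE 0.29, adjusted p = 0.232) and -0.52 (SE 0.22, adjusted p = 0.197) that did not pass. Their effects were thus not shown to differ between the genotypes. Across the 37 genes the IVF effects of the genotypes, which share no array, correlated with a Pearson r of 0.46 and a Spearman rho of 0.43, and 22 of 37 had the same sign. The r over all named genes was 0.24, and genes of 1 set of livers are not independent of each other.

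ATF7 loss was compared first in the natural mating groups. This comparison shares the WT natural mating arrays with that of IVF in WT, so that values common to both can come from those 3 livers. One of the 37 genes was called, Itgav, as higher in Atf7-/- livers (2.7%), against 3.83% of all probe sets and 4.31% of named genes. Called as lower were 0, against 3.67% and 1.9%. Itgav changed by 0.63 on the log2 scale (SE 0.10, adjusted p = 0.00174), with the Atf7-/- values at 9.01 to 9.11 and the WT values at 8.41 to 8.46. No Atf7-/- liver came near the WT range, and the call held with any 1 array left out.

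Without the fold limit 4 more genes passed, all higher in Atf7-/- livers, where 7.27% of all probe sets were higher and 6.44% lower, and 12 of the 37 (32.4%) had an unadjusted p under 0.05, against 26.6%. Itga3 had values of 7.21, 7.37 and 7.46 in Atf7-/- natural mating livers, against 6.85, 6.95 and 6.85 in WT natural mating livers (0.46, SE 0.09, adjusted p = 0.00597). This was the gene that went down with IVF in Atf7-/- mice, and the Atf7-/- natural mating livers stand above the other groups in every animal. Lama1, given above, was higher by 0.41 (SE 0.08, adjusted p = 0.00714) and Lama5 by 0.29 (SE 0.08, adjusted p = 0.0386). Lama5 had WT natural mating values of 6.59, 6.61 and 6.64, below those of every Atf7-/- natural mating liver, and lost the p threshold with any 1 of the 6 arrays left out. Itga8 was higher by 0.55 (SE 0.16, adjusted p = 0.0413), which lost the p threshold without each of the 6 arrays but WT natural mating replicate 2. Without WT natural mating replicate 3 it was 0.35.

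The other class leaders of this comparison did not pass. Itga11, a collagen-binding chain of fibroblasts, had values of 5.99, 6.33 and 5.97 in Atf7-/- natural mating livers, against 5.63, 5.85 and 5.82 in WT natural mating livers. They did not overlap, but the probe set is dim and the log2 fold change of 0.33 had an SE of 0.16. Lamc1 had values of 8.44, 8.59 and 8.71 in Atf7-/- natural mating livers, all above the WT ones, with a log2 fold change of 0.30 (adjusted p = 0.119). Lamb1 had 7.15, 7.38 and 7.27 in Atf7-/- natural mating livers and overlapped with WT. By order alone, 10 of the 37 (27%) were higher in all 3 Atf7-/- livers, against 15.5% of all probe sets, and 3 (8.11%) were lower, against 16.3%.

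After IVF the 2 genotypes were close. Of the 37 genes 0 were called, and limma called 2 probe sets in all, both lower in Atf7-/- livers (0.00575%) and 0 higher (0%). An unadjusted p under 0.05 was found for 0 of the 37 genes, against 6.12% of all probe sets, and the log2 fold changes of the 37 lay between -0.23 for Itga6 and 0.24 for Lama4. Lama4 had values of 7.02, 6.89 and 7.10 in Atf7-/- IVF livers, against 6.72, 6.87 and 6.71 in WT IVF livers (SE 0.12, adjusted p = 0.816). Itga9, which binds tenascin and other matrix ligands with Itgb1, had values of 8.97, 8.85 and 8.91 in Atf7-/- IVF livers, against 8.71, 8.82 and 8.70 in WT IVF livers (0.17, SE 0.08, adjusted p = 0.814). Both were higher in all 3 Atf7-/- animals, as were Itga2 and Itgb7, and none of them passed. These 4 were 10.8% of the 37, against 5.78% of all probe sets. Lama1 was lower in all 3 (2.7%), against 5.09%. The 95% confidence intervals were -0.18 to 0.24 for Itga1, -0.32 to 0.37 for Itga8, -0.27 to 0.15 for Itgav and -0.18 to 0.30 for Lama2, and -0.69 to 0.22 for Itga6.

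The remaining class leaders after IVF did not pass. Itga5 had 8.65, 8.81 and 8.59 in Atf7-/- IVF livers and a log2 fold change of -0.14 (SE 0.09). Itgb8, a partner of Itgav that is dim here, had values between 5.89 and 6.21 in Atf7-/- IVF livers, against 5.83, 5.78 and 6.12 in WT IVF livers. Lamb3, which forms the epithelial laminin with Lama3, had values of 6.74, 6.31 and 6.59 in Atf7-/- IVF livers, against 6.33, 6.51 and 6.44 in WT IVF livers, and Lamc3 had 6.93, 6.80 and 7.02 in Atf7-/- IVF livers, against 6.66, 6.97 and 6.75 in WT IVF livers. Itgb8, Lamb3 and Lamc3 overlapped between the genotypes.

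**Figure D4:**
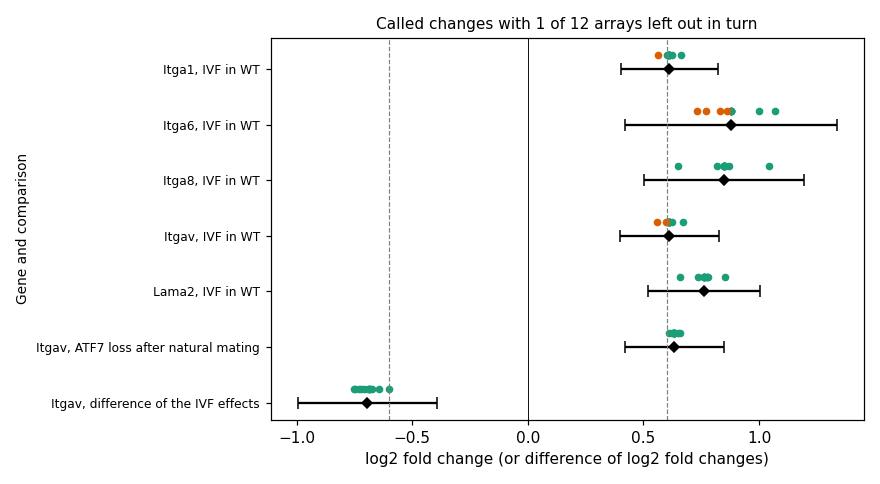
Log2 fold change, or difference of log2 fold changes for the lowest row (x axis), of each called gene and comparison (y axis). Diamonds with bars are the values from all 12 arrays with 95% confidence intervals, and the dots above them the values with 1 array left out, green where the call held and orange where it was lost. Dashed lines mark the fold limits of -0.6 and 0.6. Itga8, Lama2 and both lower Itgav rows have green dots alone.

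The leukocyte integrins had no call in any comparison over all 12 arrays, and Itgal, Itgb2, Itga4 and Itgad gave different calls or values according to which WT natural mating array was left out. Itgal, the alpha chain of LFA-1 on lymphocytes and other leukocytes, had values of 7.15, 7.22 and 7.12 in WT IVF livers, against 7.31, 7.59 and 8.26 in WT natural mating livers. Itgb2, its partner, had values of 7.23, 7.24 and 7.22 in WT IVF livers, against 7.19, 7.73 and 8.07 in WT natural mating livers. WT natural mating replicate 3 was the highest of all 12 livers for both. The log2 fold changes were -0.56 (SE 0.20, adjusted p = 0.105) for Itgal and -0.43 (SE 0.18, adjusted p = 0.16) for Itgb2, and -0.28 and -0.23 without that array. Without WT natural mating replicate 1, the lowest of its group for both, Itgal at -0.76 (SE 0.18, adjusted p = 0.0377) and Itgb2 at -0.67 (SE 0.12, adjusted p = 0.0175) were called as lower in WT IVF livers. Itgam and Itgae, which are dim here, had changes of -0.02 and 0.00.

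Itga4, which guides lymphocytes to VCAM-1, had values of 7.04, 6.87 and 6.90 in WT IVF livers, against 6.75, 7.20 and 7.51 in WT natural mating livers. It had values of 6.96, 7.19 and 7.11 in Atf7-/- IVF livers, against 6.62, 6.78 and 6.80 in Atf7-/- natural mating livers. Within Atf7-/- the IVF livers were all higher (0.35, SE 0.16, adjusted p = 0.196), while in WT the groups overlapped (-0.22). The Atf7-/- natural mating livers were at -0.42 (SE 0.16, adjusted p = 0.117) from the WT ones, and at -0.24 without WT natural mating replicate 3. Without WT natural mating replicate 1 this became a call (-0.62, SE 0.12, adjusted p = 0.0106), as did the difference of the IVF effects (0.77, SE 0.16, adjusted p = 0.0261). Itgad, an integrin alpha chain of tissue macrophages, had values of 7.12, 6.79 and 7.14 in Atf7-/- IVF livers, 6.55, 6.63 and 6.87 in Atf7-/- natural mating livers, 6.86, 6.95 and 6.91 in WT IVF livers and 6.85, 7.20 and 7.32 in WT natural mating livers. Its log2 fold change was -0.44 (adjusted p = 0.0608) for ATF7 loss after natural mating. The other, dimmer probe set of Itgad had -0.04, so the 2 disagree.

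Over all 12 arrays Itgal and Itgb2 did not pass for ATF7 loss after natural mating either. Itgal had 7.28, 7.01 and 7.29 in Atf7-/- natural mating livers (-0.53, SE 0.20, adjusted p = 0.105), and Itgb2 had 7.33, 7.43 and 7.37 in Atf7-/- natural mating livers (-0.29, SE 0.18, adjusted p = 0.348). Without WT natural mating replicate 1, Itgal was called as lower (-0.73, adjusted p = 0.0257), and Itgb2 passed the p threshold and not the fold limit (-0.52, adjusted p = 0.0239). Marker genes of macrophages varied in the same livers. The mean over 12 Kupffer cell and macrophage markers was 9.22 to 9.29 in WT IVF livers, against 9.18, 9.60 and 9.90 in WT natural mating livers. In WT natural mating livers this was the order of animals for Itgal and Itgb2 too. In WT IVF livers the markers (9.27, 9.22 and 9.29) ran in the reverse order of both genes. In Atf7-/- natural mating livers (9.17, 9.01 and 9.19) they followed the order of Itgal and not of Itgb2. In Atf7-/- IVF livers (9.15, 9.36 and 9.07) they followed that of Itgb2 and not of Itgal. Of these 12 markers Cd5l was called as lower in WT IVF, against 1.67% of all probe sets, and 11 of 12 had a negative change, with a median of -0.31. With ATF7 loss after natural mating their median was -0.37, with Clec4f, Cd5l, Marco and C1qa called as lower and Vsig4 as higher. Of all probe sets, 3.67% were called as lower and 3.83% as higher there. The mean over 9 T and NK cell markers was highest of all livers in WT natural mating replicate 3 (5.89), where 8 of the 9 are below the median probe set. Replicates 1 and 2 of that group were at 5.38 and 5.56, and the WT IVF livers at 5.56 to 5.75. With IVF in WT, 4 of these 9 markers had a positive change (median -0.03). So had 3 of 3 measured B cell markers (median 0.34, Ms4a1 called as higher), 2 of them dim, and 3 of 8 neutrophil markers (median -0.02), 6 of them dim. The part of leukocyte content in the values of these integrins was not tested, and in whole liver fewer cells of a type and less RNA per cell cannot be told apart.

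**Figure D5:**
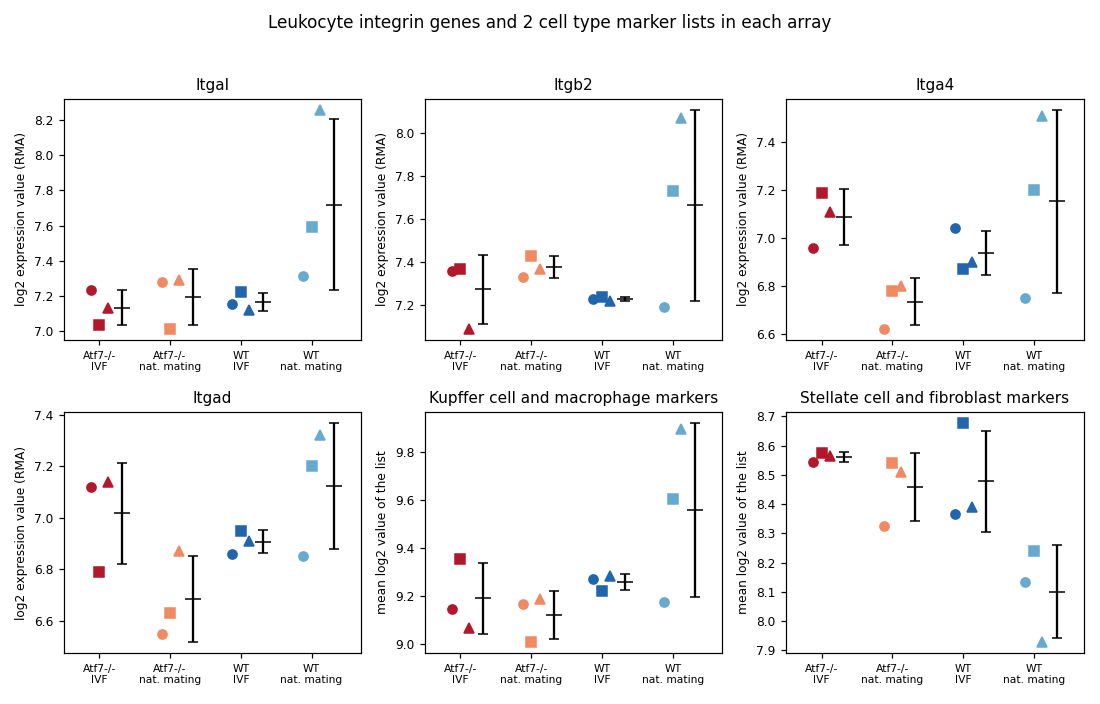
Log2 expression value (y axis) of the leukocyte integrin genes Itgal, Itgb2, Itga4 and Itgad, and the mean log2 value of the Kupffer cell and macrophage markers and of the stellate cell and fibroblast markers, in the 12 livers by group (x axis). Symbols are replicates 1 to 3 as circle, square and triangle, with mean and SD beside them. WT natural mating replicate 3 is highest for the 4 genes (8.26 for Itgal) and for the macrophage markers (9.90), and lowest for the stellate markers (7.93).

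Markers of stellate cells and fibroblasts, cells known to carry Itga1, Itga8 and Lama2, differed between the groups as well. Their mean over 16 genes was 8.37 to 8.68 in WT IVF livers, against 7.93 to 8.24 in WT natural mating livers, with no overlap. Of the 16 markers 15 had a positive change in this comparison (median 0.40), and 1, Reln, was called as higher, against 2.85% of all probe sets. In Atf7-/- mice the mean was 8.54 to 8.58 in IVF livers, against 8.32 to 8.54 in natural mating livers, so these groups met at 8.54. There 8 of 16 changes were positive (median 0.07), and 1, Hhip, was called as higher, against 3.27% of all probe sets. For ATF7 loss after natural mating the median was 0.35, with Pdgfrb, Acta2 and Ecm1 called as higher, against 3.83% of all probe sets. The part of stellate cell content in the integrin and laminin values was not tested. Markers of sinusoidal endothelium had a median change of 0.12 with IVF in WT, and those of bile duct cells 0.15. Of 4 measured erythroid markers 4 had a positive change with IVF in WT (median 0.51), above the median of the stellate markers, and 0 were called. The erythroid mean was 7.58 to 8.30 in WT IVF livers, against 7.06 to 7.98 in WT natural mating livers, and these overlapped. Of 4 measured platelet markers 3 had a positive change with IVF in WT and 2 were called as higher, Ppbp at 2.05 (SE 0.44, adjusted p = 0.0179) and Pf4 at 0.72 (SE 0.15, adjusted p = 0.0164), beside 0.12 for Itga2b and 0.22 for Itgb3, the integrin pair of platelets.

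The proteins that link integrins to the cytoskeleton or sit beside them in the membrane were followed in a list of 40 measured genes. With IVF in WT, 3 of 40 were called as higher (2.85% of all probe sets) and 0 as lower (1.67% of all), beside a median of -0.02. These were Fermt2 (0.91, SE 0.12, adjusted p = 0.00264), the kindlin that activates integrins from inside the cell, Cd151 (0.65, SE 0.13, adjusted p = 0.015), a tetraspanin bound to Itga3 and Itga6, and the small GTPase gene Rap1b (0.60, SE 0.12, adjusted p = 0.0139), an activator of integrins. With IVF in Atf7-/- mice, 5 of 40 were called as lower (3.51% of all probe sets) and 0 as higher (3.27% of all), with a median of -0.23. They were Lims2 (-1.27), Cd9 (-1.07), Tns2 (-0.94), Sharpin (-0.81) and Zyx (-0.77), of which Lims2, Tns2 and Zyx code for adaptor proteins of focal adhesions, Cd9 for a tetraspanin and Sharpin for an inhibitor of integrin activation.

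With ATF7 loss after natural mating, 7 of the 40 adaptor and signalling genes were called as higher (3.83% of all probe sets) and 0 as lower (3.67% of all), with a median of 0.17. Lims2 at 1.16, Cd151 at 0.89, Cd81 at 0.71 and Rsu1 at 0.68 led them, followed by Lims1 (0.66), Sharpin (0.63) and paxillin, Pxn (0.61). Lims1 and Lims2 encode the PINCH proteins, which bind integrin-linked kinase. After IVF, 0 of 40 differed between the genotypes by the call. The difference of the IVF effects was called for 7, all lower (3.46% of all probe sets), among them Lims2 (-1.21, SE 0.21, adjusted p = 0.00771) and Cd151 (-1.02, SE 0.19, adjusted p = 0.00947), and the mean of the list was highest in Atf7-/- natural mating livers, at 8.83 to 8.85, against 8.54 to 8.59 in Atf7-/- IVF, 8.58 to 8.62 in WT IVF and 8.57 to 8.63 in WT natural mating livers.

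Ligands of integrins other than laminins gave 1 higher call with IVF in WT, 3 higher with ATF7 loss after natural mating and 1 lower with IVF in Atf7-/- mice. The corresponding shares of all probe sets were 2.85%, 3.83% and 3.51%. Of 27 measured, Thbs1, which codes for the matricellular protein thrombospondin, was higher with IVF in WT (0.69, SE 0.18, adjusted p = 0.04) and with ATF7 loss after natural mating (0.97, SE 0.18, adjusted p = 0.00502), 2 comparisons with the same WT natural mating livers. Tnc, the tenascin that Itga8, Itga9 and Itgav bind, was also higher with ATF7 loss (0.83, SE 0.20, adjusted p = 0.0204), as was Cdh1 (0.78, SE 0.16, adjusted p = 0.00901), the ligand of the Itgae and Itgb7 pair. Ccn1 was the 1 called with IVF in Atf7-/- mice, as lower (-0.69, SE 0.19, adjusted p = 0.0358). The median change of the 27 was 0.09 with IVF in WT, -0.16 with IVF in Atf7-/- mice and 0.18 with ATF7 loss after natural mating.

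Among 28 other genes of the basement membrane and of laminin receptors, 0 were called with IVF in WT, against 2.85% of all probe sets higher and 1.67% lower. For ATF7 loss after natural mating these shares were 3.83% and 3.67%, and for IVF in Atf7-/- mice 3.27% and 3.51%. For the difference of the IVF effects they were 2.72% and 3.46%. With ATF7 loss after natural mating, Nid1 (1.13, SE 0.19, adjusted p = 0.00263), the nidogen that bridges laminin and collagen IV, Dag1 (0.68, SE 0.12, adjusted p = 0.00388), the laminin receptor dystroglycan, and Sparc (0.61, SE 0.10, adjusted p = 0.00275) were higher. Rpsa was lower (-1.18, SE 0.12, adjusted p = 0.000178), a ribosomal protein gene first described as a laminin receptor, and it was higher with IVF in Atf7-/- mice (0.67, SE 0.12, adjusted p = 0.00483). The IVF effect was lower in Atf7-/- than in WT mice for Nid1 (-1.14, SE 0.26, adjusted p = 0.0269) and for Dag1 (-0.67, SE 0.17, adjusted p = 0.0402), and higher for Rpsa (1.09, SE 0.17, adjusted p = 0.00467). The measured collagen IV genes, which code for the other network of the basement membrane, were not among the calls of any comparison.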

How the data were processed

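Total RNA from 12 livers was labelled and hybridised to Affymetrix Mouse Gene 1.0 ST arrays. The authors made log2 values per probe set from the scans by RMA in the affy package, by the submitters' processing notes, and the deposited log2 values were used unchanged. Package versions and the genome build were not given in the sources used here. The platform annotation gives 1 gene symbol for 21640 of 34760 probe sets, more than 1 for 1321 and no symbol for 11799. Genes were named from 1-symbol probe sets, and all 37 symbols matched RefSeq (GRCm38.p6), which also gave the promoters.

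limma 3.58.1 in R 4.3.3 fitted a mean for each of the 4 groups over 12 arrays (8 residual degrees of freedom), with Benjamini-Hochberg adjustment over all probe sets. The step was tested on simulated data. Values of each array are given for called genes, for Itgb1 and Lamc1 and for the gene with the largest change in each role class and comparison of 2 groups, and context genes are called genes of written lists. Members and lists were chosen with earlier results of these data known. Animals were separate, and same-numbered arrays were not paired (correlation of their deviations -0.12 to 0.24). Alternatives were other fits, scalings, filters and thresholds, and leaving out each array. The number of arrays limits the precision. Python 3.11.15 drew the figures, through matplotlib 3.10.9 with numpy 2.4.6.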

Additional observations from a re-analysis of the deposited data

Results flagged for a closer look

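In a direct test, the effect of IVF differed between the genotypes past the p threshold for 2 of the 37 genes. Itgav also passed the fold limit, and Lama1 did not. For Itgav the difference, that in Atf7-/- mice minus that in WT mice, was -0.69 on the log2 scale (SE 0.14, limma adjusted p = 0.0138), and for Lama1 it was -0.57 (SE 0.12, adjusted p = 0.0158). At this p threshold without the fold limit, 4.15% of all probe sets had a lower and 3.1% a higher effect in Atf7-/- mice, beside 2 lower (5.41%) and 0 higher among the 37. For both genes every WT natural mating liver was below all livers of the other groups, so both differences rest on those arrays as well.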

How the results depend on the processing

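With 5 of 37 genes called for IVF in WT, leaving out 1 array gave 3 to 5. Itga1, Itgav and Lama2 were left when only the WT arrays were fitted or at an adjusted p of at most 0.01. Itga6, Itga8 and Lama2 were left with array weights or after further quantile normalization. There Itga1 (0.594 and 0.545) and Itgav (0.599 and 0.553) fell under the fold limit. Itga8 and Lama2 were called without any 1 array. Without WT natural mating replicate 1 the 5 were other genes in part, 3 higher (Itga1, Itga8 and Lama2) and 2 lower (Itgal and Itgb2), the one array whose loss gave lower calls here. For IVF in Atf7-/- mice the count of 0 became 0 to 1 with 1 array left out and 4 without the fold limit. For ATF7 loss after natural mating the count of 1 became 1 to 3 with 1 array left out (3 without WT natural mating replicate 1, with Itga4 and Itgal as lower), 5 without the fold limit and 0 after quantile normalization, where Itgav was at 0.59. For the difference of the IVF effects the count of 1 became 1 to 2 with 1 array left out, and 2 with median centring, quantile normalization or no fold limit, each adding Lama1 (-0.65 with median centring), and 0 at an adjusted p of at most 0.01. A log2 fold limit of 1 left 0 in every comparison. ATF7 loss after IVF kept its count of 0 in all alternatives. No direction of a called gene turned. Intensity trend with robust variances, the filter on dim probe sets, 1-symbol probe sets and the mean of a gene's probe sets left every count within 1.5 times.

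With the replicate number as a replicate block, the counts stayed at 5, 0, 1, 0 and 1. Of 18 pairs of same-numbered arrays 3 correlated above 0.1 in their deviations from the group means, and 13 of 36 best matches had the own number, so the numbers do not pair the animals. Median centring moved the share of higher calls among all called probe sets to 75.5%, against 63%, for IVF in WT and to 30.4%, against 44%, for the difference of the IVF effects. It moved the number of the 37 genes with a positive change in WT to 23, against 15. No shift of the median of all probe sets exceeded 0.1.

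With 3 animals a group, the smallest change of the 37 genes that passed the p threshold was -0.28, for Lama5, and 10 of the 37 probe sets were below the median brightness.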
